A study of Mus musculus with 18 samples.

Results

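Atf3, the 3 small Maf genes (Maff, Mafg and Mafk) and 4 genes of the C/EBP family (Cebpa, Cebpb, Cebpd and Cebpg) were followed through a time course of axon injury in cultured mouse sensory neurons. They were picked by name as basic leucine zipper transcription factors of the injury response, with earlier results of these data known, and make up 8 of the 47643 genes with counts. RNA was sequenced from spot cultures of dorsal root ganglia (eDRG) of CD-1 mouse embryos at E13.5, grown with the mitotic inhibitor FDU in every group. The uninjured control cultures were collected at day in vitro (DIV) 7. In the other groups the axons were cut with a blade at DIV 7. Those cultures were collected 1, 3, 8, 16 or 24 h post injury (HPI). No uninjured group was collected at the later times, so time since injury and time in culture cannot be told apart. Each of the 6 groups held 3 libraries, 18 in all, with 9478891 to 23082327 counts on genes per library. Libraries with the same replicate number were treated as a batch. The sources do not say that replicates came from separate cultures or litters, so the p-values measure the spread between these libraries, which may be technical.

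Basic leucine zipper factors bind DNA only as pairs, and which partner is present decides which sites a pair can reach. ATF3 is made at low levels in resting cells and rises after many kinds of stress; in sensory neurons it is known as a marker of axon injury and pairs with JUN and with other ATF and C/EBP proteins. The small Maf proteins have no activation domain of their own: paired with each other they occupy Maf recognition elements without activating, and paired with NRF2 and the other cap'n'collar (CNC) factors they bind antioxidant response elements, from which BACH1 can displace those factors. C/EBP proteins differ in the same way, since C/EBPα, C/EBPβ and C/EBPδ carry activation domains whereas C/EBPγ has only the DNA-binding and pairing part and works through its partners, ATF4 among them.

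The promoters of Atf3 and Maff are shown because these were the members called at 8 HPI (a gene was called when it moved more than 2-fold with an adjusted p below 0.05). Each window runs from 250 bases before to 50 bases after a RefSeq transcript start on GRCm38.p6, and capitals mark the motif found. The Atf3 window lies at chr1:191183284-191183583 on the minus strand, and the Maff window shown at chr15:79347270-79347569 on the plus strand. In GENCODE vM21 the Atf3 gene begins upstream of its window, at base 191218039, and no window there was searched. Maff has further RefSeq starts. The window at chr15:79346371-79346670 is described below, and that at chr15:79348152-79348451 held none of the motifs searched.
Atf3 promoter: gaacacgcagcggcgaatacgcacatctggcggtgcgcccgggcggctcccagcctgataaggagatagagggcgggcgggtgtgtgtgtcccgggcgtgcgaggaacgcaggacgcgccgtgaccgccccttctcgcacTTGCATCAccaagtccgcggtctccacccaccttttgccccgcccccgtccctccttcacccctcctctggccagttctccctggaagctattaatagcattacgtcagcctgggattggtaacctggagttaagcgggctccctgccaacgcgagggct
Maff promoter: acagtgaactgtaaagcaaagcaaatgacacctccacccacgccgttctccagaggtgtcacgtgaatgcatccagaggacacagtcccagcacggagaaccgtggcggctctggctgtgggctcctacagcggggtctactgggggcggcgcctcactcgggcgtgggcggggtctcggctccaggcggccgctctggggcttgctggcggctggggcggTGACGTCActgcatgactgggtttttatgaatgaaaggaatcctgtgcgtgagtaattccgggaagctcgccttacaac

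In the Atf3 window the capitals are a composite C/EBP-ATF core, TGATGCAA, read here on the opposite strand as TTGCATCA, which begins 110 bases before the start. In the Maff window they are a full cAMP response element (CRE), TGACGTCA, the palindromic site of ATF/CREB pairs, 29 bases before the start. Both motifs were searched on both strands, and the composite core stood in 0.895% and the CRE in 1.79% of the 32851 RefSeq windows of this length. Of the 8 members 7 were matched to RefSeq starts, with 9 windows, all but Cebpd. The pattern TTNNGCAA, a C/EBP site with its first arm left partly free, was found in 10.8% of all windows and in 1 of the 9, another Maff start at chr15:79346371-79346670, where it reads TTGCACAA on the opposite strand. The core of the antioxidant response element, TGACNNNGC, was found in 12.4% of all windows and, among members, in that same Maff window and in the windows of Mafg, Mafk and Cebpb. The AP-1 site TGACTCA was in 5.20% of all windows and in no window of a member. A match is a run of letters, not a measured binding site.

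In control cultures the members ranged from abundant to barely detected. Levels between genes are given as RPKM, reads per kilobase of exon scaled to library size, each a mean ± SD of 3 libraries. Mafg stood highest at 19.8 ± 0.725, followed by Cebpg at 10.1 ± 0.232, Atf3 at 6.25 ± 2.56, Cebpb at 4.47 ± 1.94, Maff at 3.09 ± 0.741 and Mafk at 2.14 ± 0.335. Cebpa, at 0.198 ± 0.115, and Cebpd, at 0.175 ± 0.073, were lowest. The control ranges of Atf3 and Cebpb overlapped, and so did those of Cebpb and Maff, of Maff and Mafk, and of Cebpa and Cebpd, so the order within these pairs is not set beyond their spread. Cebpa had only 4 to 18 and Cebpd 6 to 20 counts in a control library. With lengths of the longest transcript in place of merged exons the order was the same.

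The time course of each member was tested in 1 model over all 18 libraries with terms for time and batch. By edgeR's quasi-likelihood F test, adjusted after Benjamini-Hochberg over 13771 genes, each of the 8 members differed among the 6 groups, with adjusted p from 4.43e-10 for Atf3 to 0.0273 for Cebpa, where 30.0% of all tested genes did. The filter used CPM without normalization, a library's counts scaled to its total on genes, and on that scale Cebpa exceeded 1 CPM only in the 3 libraries of 16 HPI. It entered the test through that group alone, so its difference is partly set by the filter. Since earlier results were known when the members were chosen, the shares of all genes given below are a background and not a test of the members. At 1 and 3 HPI no member passed an adjusted p of 0.05 in edgeR's test, against 0.276% and 0.189% of all genes, and Maff at both times and Mafg at 3 HPI were the members with an unadjusted p under 0.05, as were 1768 of the 13771 genes at 1 HPI and 1999 at 3 HPI. At 8 HPI 6 of 8 members were higher than control (3.78% of all genes were), 2 of them called (0.254% of all genes were called higher). At 16 HPI 8 of 8 were higher, or 7 of 7 with Cebpa set aside (10.7% of all genes), and 3 were called, or 2 with Cebpa set aside (1.18%). At 24 HPI Atf3 alone was higher (5.99% of all genes) and was called (0.639%). Over the members the median log2 fold change was 0.43, 0.68 and -0.02 at 8, 16 and 24 HPI, against 0.00 over all tested genes at each time. The count at 16 HPI rests partly on single libraries: it was 5 without control replicate 1, 4 without control replicate 2 and 3 without 16 HPI replicate 1.

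**Figure D1:**
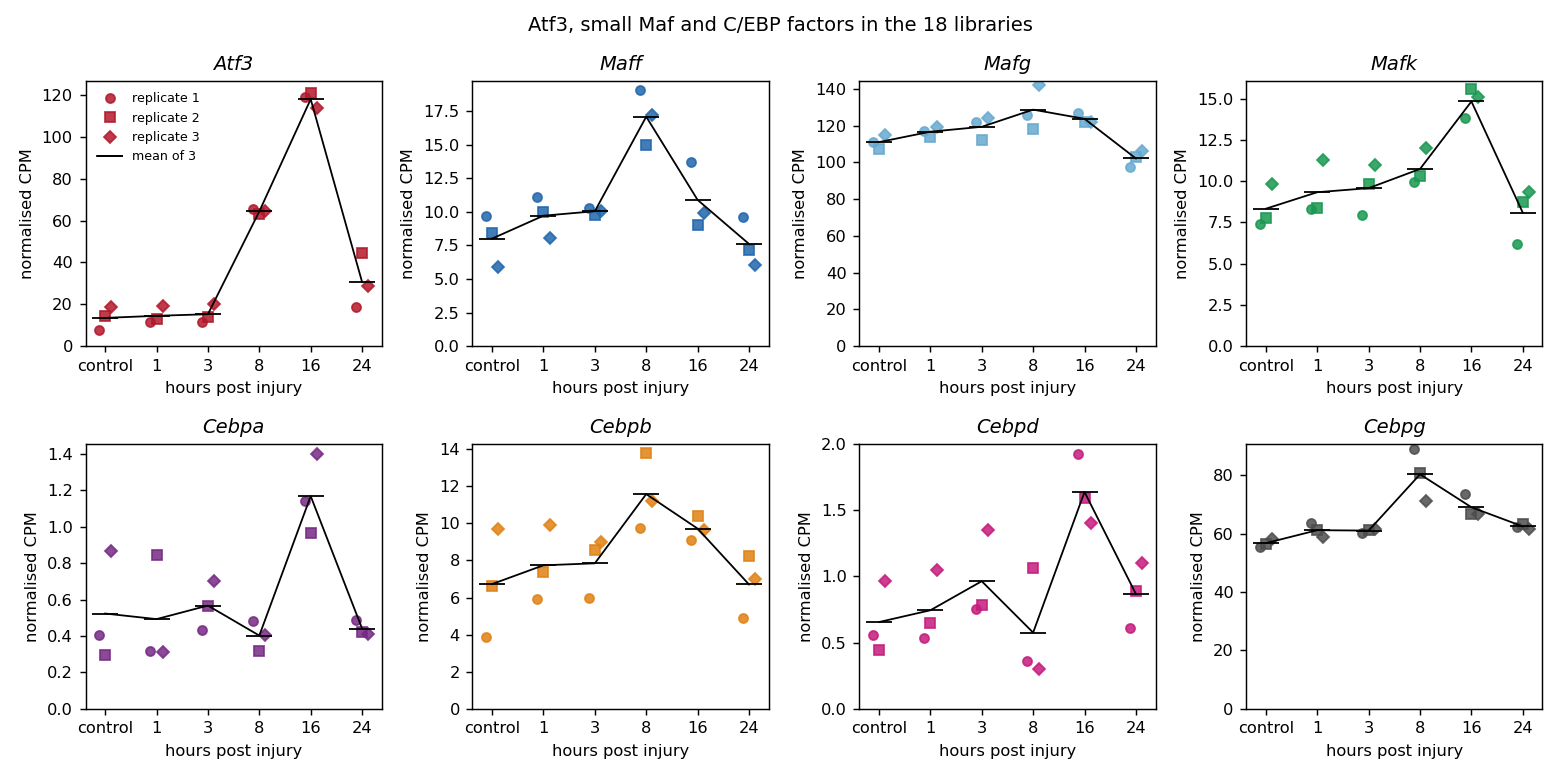
Normalized CPM of each member (y axis, linear, starting at 0) in the 18 libraries by hours post injury (x axis). Points are single libraries, marked by replicate number, and black bars joined by a line are the means of 3 libraries. Atf3 climbs to 114 to 121 CPM at 16 HPI, Maff, Mafg, Cebpb and Cebpg have their highest means at 8 HPI, and Mafk, Cebpa and Cebpd at 16 HPI.

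Atf3 showed the widest swing of the 8. Its normalized level in the control libraries was 7.62, 14.2 and 18.6 CPM in replicates 1, 2 and 3, and it stayed near that range at 1 HPI (11.4, 12.8 and 19.2 CPM) and at 3 HPI (11.7, 13.7 and 20.3 CPM). It then rose to 65.7, 63.0 and 64.4 CPM at 8 HPI and to 119, 121 and 114 CPM at 16 HPI, and fell back to 18.9, 44.3 and 28.7 CPM at 24 HPI. Every library of 8 and of 16 HPI lay above every library of control, 1 and 3 HPI, and the 16 HPI libraries also lay above those of 8 HPI. The lowest library of 24 HPI and the highest of control nearly touched. The libraries agreed most where Atf3 was high, with a coefficient of variation of 2.16% at 8 HPI and 2.96% at 16 HPI against 41.0% in control and 41.9% at 24 HPI.

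Against control, Atf3 was 4.90-fold higher at 8 HPI (log2 fold change 2.29, SE 0.22, adjusted p = 1.82e-06) and 8.95-fold higher at 16 HPI (3.16, SE 0.21, adjusted p = 4.12e-09). Of 13771 genes, 4 had a larger log2 fold change at 8 HPI and 10 at 16 HPI. At 24 HPI it was still 2.29-fold higher (1.19, SE 0.22, adjusted p = 0.0011). Within batches 1, 2 and 3 the log2 difference at 16 HPI was 3.94, 3.09 and 2.61, in the reverse order of the control levels. Both the rise and the fall were sharp between neighboring times. From 3 to 8 HPI Atf3 rose by a log2 fold change of 2.12 (SE 0.21), a rise that 1 other gene exceeded, from 8 to 16 HPI it rose by another 0.87 (SE 0.18, adjusted p = 0.00252), and from 16 to 24 HPI it fell by 1.97 on the log2 scale (SE 0.19, adjusted p = 2.05e-06), with 7 genes falling further. The calls at 8 and 16 HPI held in all 14 alternatives. That at 24 HPI did not: the log2 fold change was 0.98 without control replicate 1 and 0.82 without 24 HPI replicate 2, and the adjusted p was 0.0843 without the batch term.

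**Figure D2:**
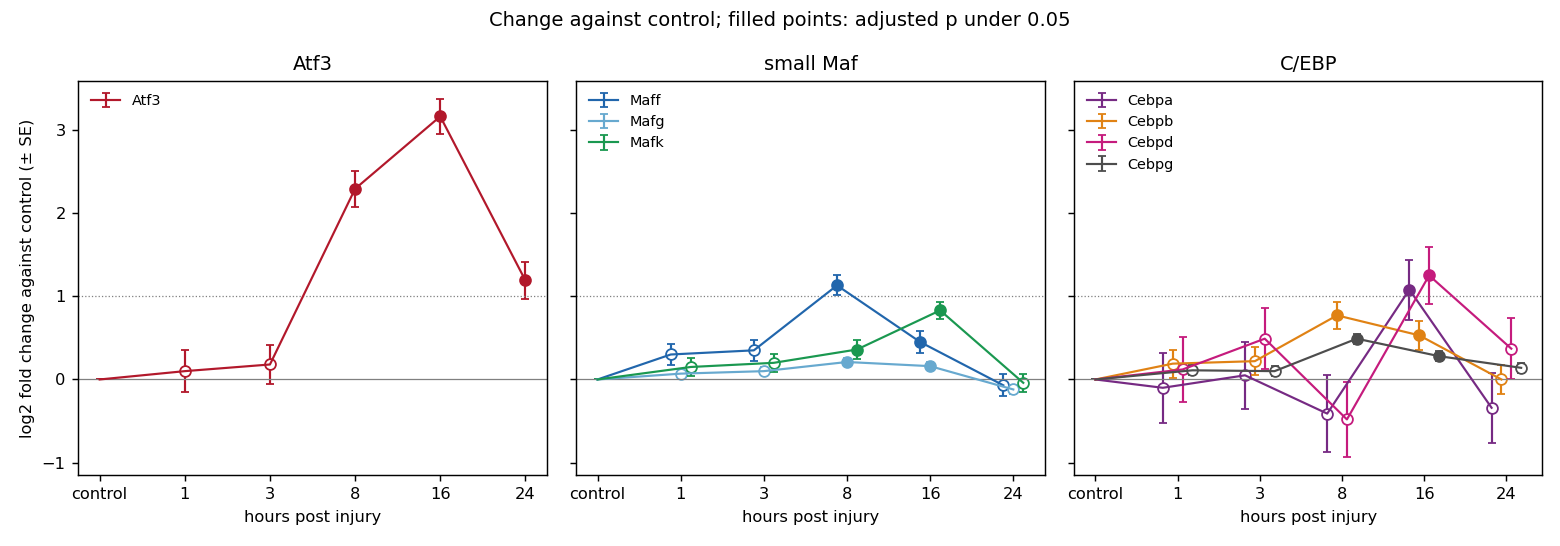
Log2 fold change against control (y axis, ± SE from edgeR's fit) at each time (x axis) for Atf3, the small Maf genes and the C/EBP genes. Filled points passed an adjusted p of 0.05, and the dotted line marks a 2-fold rise. Atf3 reached 3.16 at 16 HPI, Maff peaked at 1.13 at 8 HPI and Mafk at 0.83 at 16 HPI, while Cebpa and Cebpd show the widest error bars.

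Among the small Maf genes, Maff rose early and briefly, Mafk later, and Mafg, by far the most abundant, moved least. Maff, the stress-responsive member of the family, measured 9.71, 8.40 and 5.92 CPM in the control libraries and 19.1, 15.0 and 17.2 CPM at 8 HPI, with no overlap between the groups. That was a 2.19-fold rise (log2 fold change 1.13, SE 0.12, adjusted p = 5.92e-06), which was 0.99 on the log2 scale without control replicate 3. At 3 HPI it stood at 10.3, 9.76 and 10.1 CPM, just above the control range, with a log2 fold change of 0.35 that missed the threshold (adjusted p = 0.213). By 16 HPI it was down to 13.7, 9.06 and 9.93 CPM, which overlaps control, and its log2 fold change had shrunk to 0.45 (SE 0.13, adjusted p = 0.0147). It passed in 10 of 14 alternatives, and not without control replicate 3 (adjusted p = 0.121) or without 16 HPI replicate 1 (0.0951) or 3 (0.0544). At 24 HPI it measured 9.61, 7.15 and 6.08 CPM, within the control range. The order of the replicates was the same in control and at 24 HPI, replicate 1 being highest and replicate 3 lowest.

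Mafk measured 7.42, 7.74 and 9.83 CPM in control, 9.92, 10.3 and 12 CPM at 8 HPI, and 13.8, 15.6 and 15.1 CPM at 16 HPI. The 16 HPI libraries lay above all 15 others. The log2 fold change was 0.36 (SE 0.11, adjusted p = 0.0421) at 8 HPI, which 3 of 14 alternatives kept under the threshold, and 0.83 (SE 0.10, adjusted p = 6.43e-06) at 16 HPI, which all 14 kept. At 24 HPI Mafk was back at 6.18, 8.74 and 9.33 CPM. Mafg, whose product is the main small Maf partner of NRF2 in many cells, ran between 97.3 and 142 CPM over all libraries. It was 111 ± 4.07 CPM in control, 129 ± 12 at 8 HPI, 124 ± 2.95 at 16 HPI and 102 ± 4.45 at 24 HPI (SD, n = 3). Its rise passed the test at 8 HPI (log2 fold change 0.21, SE 0.05, adjusted p = 0.0132) and at 16 HPI (0.16, SE 0.05, adjusted p = 0.0289), in 10 and 7 of 14 alternatives. All 3 libraries of 24 HPI lay below those of control, but that difference missed the threshold (-0.12, adjusted p = 0.118).

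The ratio of Maff to the other small Maf transcripts was highest at 8 HPI. The log2 ratio of Maff to Mafg CPM was -3.80 ± 0.40 in control and -2.90 ± 0.17 at 8 HPI (SD, n = 3), and that of Maff to Mafk was -0.07 ± 0.58 in control and 0.67 ± 0.23 at 8 HPI. Both ratios were higher in every 8 HPI library than in every control library, with an exact permutation p of 0.1, two-sided, the smallest that 3 against 3 libraries allow. At 16 HPI the Maff to Mafk ratio was -0.46 ± 0.40, which overlapped control (exact permutation p = 0.3). These are 2 of the 4 ratios between relatives that were computed, each at 5 times.

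Members that passed the test moved in opposite directions from 8 to 16 HPI, and in the same direction in the steps before and after it. From 3 to 8 HPI 3 of the 8 factors rose (Atf3, Maff and Cebpg), where 1.74% of all genes did, and Atf3 was called (0.174%). From 8 to 16 HPI 4 rose (Atf3, Mafk, Cebpa and Cebpd, against 7.30% of all genes) and 2 fell (Maff and Cebpg, against 7.88%), and the 2 called were Cebpa and Cebpd (0.799% of genes were called higher). With Cebpa set aside, since it passed the filter only through 16 HPI, 3 rose and 1 was called. Over that step Maff fell by 0.68 on the log2 scale (SE 0.12, adjusted p = 0.000609) while Mafk rose by 0.46 (SE 0.10, adjusted p = 0.00349). From 16 to 24 HPI 6 fell (6.22% of all genes), and Atf3 and Cebpa were called lower (0.414%), or 5 fell and 1 was called with Cebpa set aside. In that step Mafk fell by 0.87 on the log2 scale (adjusted p = 1.35e-05), Maff by 0.52 (adjusted p = 0.0119) and Mafg by 0.28 (adjusted p = 0.00124). The count of 6 was 3 without 16 HPI replicate 1 or without 24 HPI replicate 3, and no call remained from 8 to 16 HPI without 8 HPI replicate 3.

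**Figure D3:**
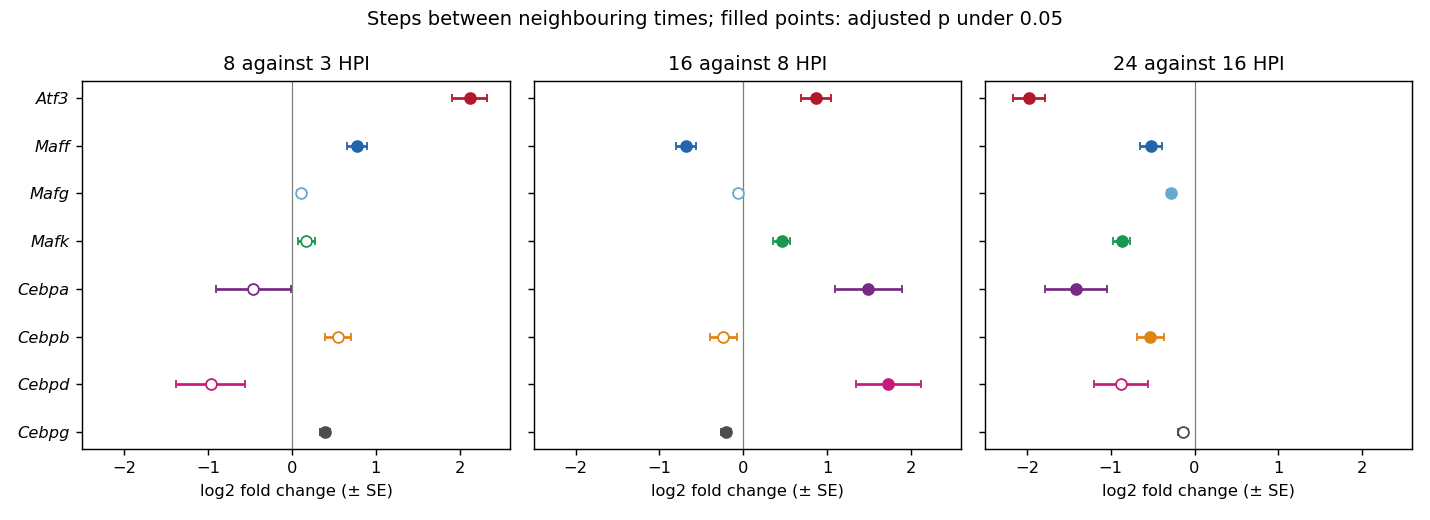
Log2 fold change (x axis, ± SE) of the 8 members between neighboring times, from 3 to 8, 8 to 16 and 16 to 24 HPI. Filled points passed an adjusted p of 0.05 in edgeR's test. Maff (-0.68) and Mafk (0.46) lie on opposite sides of 0 between 8 and 16 HPI, and all 8 values lie below 0 between 16 and 24 HPI.

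The C/EBP genes split into a pair with ample counts that was highest at 8 HPI, Cebpb and Cebpg, and a pair with few counts that was highest at 16 HPI, Cebpa and Cebpd. Cebpg was the steadiest of the 4. It measured 55.6, 56.6 and 58.2 CPM in control and 89.2, 80.8 and 71.2 CPM at 8 HPI, and then 73.8, 66.8 and 66.7 CPM at 16 HPI. Libraries at every time after injury lay above the control range, at 24 HPI by a little (61.6 to 63.5 CPM). The log2 fold change was 0.49 (SE 0.06, adjusted p = 2.49e-05) at 8 HPI and 0.28 (SE 0.06, adjusted p = 0.00191) at 16 HPI, both under the threshold in all 14 alternatives, and 0.14 (adjusted p = 0.137) at 24 HPI. Its fall of 0.21 on the log2 scale from 8 to 16 HPI also passed (adjusted p = 0.0182).

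Cebpb, a C/EBP activator induced by cytokines and stress, differed as much between batches as between times. Control libraries held 3.86, 6.64 and 9.68 CPM in replicates 1, 2 and 3, and the 8 HPI libraries 9.74, 13.8 and 11.2 CPM. The groups did not overlap, but replicate 3 of control and replicate 1 of 8 HPI were nearly equal, and within batches 1, 2 and 3 the log2 difference was 1.31, 1.04 and 0.21. The fitted log2 fold change was 0.77 (SE 0.16, adjusted p = 0.00663) at 8 HPI, 1.10 without control replicate 3, and its adjusted p was 0.392 without the batch term. At 16 HPI Cebpb measured 9.10, 10.4 and 9.66 CPM with a log2 fold change of 0.53 (SE 0.17, adjusted p = 0.0245), higher than control in 2 of 3 batches. That value passed in 9 of 14 alternatives, and not without control replicate 1 (adjusted p = 0.146) or 2 (0.0974) or without 16 HPI replicate 1 (0.12). At 24 HPI it was at 4.90, 8.23 and 6.99 CPM, and the log2 fold change was 0.00.

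Cebpa, which drives differentiation in fat, liver and myeloid cells, and Cebpd, an early gene of inflammatory signaling, were near the limit of detection. Cebpa had 8, 4 and 18 counts in the control libraries, 8, 3 and 8 at 8 HPI, 16, 17 and 26 at 16 HPI and 8, 9 and 9 at 24 HPI. Cebpd had 11, 6 and 20 counts in control, 6, 10 and 6 at 8 HPI, 27, 28 and 26 at 16 HPI and 10, 19 and 24 at 24 HPI. In both, the 3 libraries of 16 HPI were the highest of the 18 in CPM, at 0.963 to 1.40 CPM for Cebpa and 1.40 to 1.92 CPM for Cebpd. A count of 3 corresponds to 0.13 to 0.316 CPM in these libraries.

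The log2 fold change at 16 HPI was 1.08 for Cebpa (SE 0.36, adjusted p = 0.0341) and 1.25 for Cebpd (SE 0.34, adjusted p = 0.011). From 8 to 16 HPI it was 1.49 for Cebpa (SE 0.40, adjusted p = 0.0139) and 1.73 for Cebpd (SE 0.39, adjusted p = 0.00407). From 16 to 24 HPI Cebpa fell by 1.41 on the log2 scale (adjusted p = 0.0161), and the value for Cebpd, -0.88, missed the threshold (adjusted p = 0.0859). Against control the Cebpa call was kept in 7 of 13 alternatives with a value and that of Cebpd in 10 of 13. For Cebpa it was lost without control replicate 1 (adjusted p = 0.118) or 2 (0.15) and without 16 HPI replicate 1 (0.0986) or 3 (0.133), and for Cebpd without control replicate 2 (0.056) or 16 HPI replicate 1 (0.0732). Without the batch term the adjusted p was 0.139 for Cebpa and 0.0953 for Cebpd. By the DESeq2 Wald test Cebpa also lost its call (adjusted p = 0.108), while Cebpd kept its own.

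Several members share transcribed sequence with a neighboring gene. Spidr overlaps the single exon of Cebpd by 562 bases and Tmem189 that of Cebpb by 312 bases, both on the opposite strand, while Tmem184a overlaps Mafk by 169 bases on the opposite strand and Sirt7 overlaps Mafg by 124 bases on the same strand. Strand use in counting was not given in the sources used here, so reads from these overlaps cannot be told apart. At 16 HPI the log2 fold change was 0.07 for Spidr (adjusted p = 0.788), -0.26 for Tmem189 (adjusted p = 0.000719) and 0.00 for Sirt7 (adjusted p = 0.984), and Tmem184a had at most 5 counts in a library.

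The cultures are bulk samples, in which fewer cells of a type and less RNA per cell cannot be told apart, and C/EBP genes are also made by myeloid, fat and connective tissue cells. Sensory neuron markers were abundant, with a summed level of the 7 genes of 8848 to 9387 CPM in control and 7669 to 8471 CPM at 16 HPI, and Tubb3 was lower at 16 HPI. The 9 myeloid markers summed to 3.69 to 6.40 CPM in control, 4.90 to 7.01 at 8 HPI, 5.88 to 6.54 at 16 HPI and 7.52 to 7.86 at 24 HPI. Of these 9, 2 were tested, Cd68 rose at 16 and 24 HPI, and 3 had at most 3 counts in every 16 HPI library. The 5 adipocyte markers summed to at most 0.682 CPM in any library, and 4 of them had at most 3 counts in each 16 HPI library. The 6 fibroblast markers summed to 2.58 to 9.68 CPM in control and 4.53 to 14.7 at 16 HPI, with Dcn of the 4 tested rising at 16 and 24 HPI. The part of these cells in the C/EBP values was not tested.

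The glial and red cell markers that passed the test were lower after injury. The 10 satellite glia and Schwann cell markers summed to 164 to 248 CPM in control and 152 to 207 at 16 HPI, and S100b was lower at 16 and 24 HPI. The 6 endothelial markers summed to at most 2.15 CPM and none was tested. The 9 erythroid markers summed to 5.03 to 17.6 CPM in control and 3.27 to 14.7 at 16 HPI, with Hba-x lower from 8 HPI on. Of the 5 markers of dividing cells, Ccnb1 was higher at 8 HPI and Top2a at 24 HPI. Genes that collect residual ribosomal RNA reads summed to 7015 to 9952 CPM in control and 9168 to 23531 at 16 HPI, where 3 of the 4 tested rose, and the top value was replicate 1, the library without which the count of members at 16 HPI dropped to 3. With residual ribosomal and mitochondrial genes left out of the counts, 8 members passed and 3 were called at 16 HPI, the same numbers as with them.

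Partners and relatives of ATF3 and the C/EBP factors were counted as a list of 21 ATF/CREB and AP-1 genes, of which 18 were tested. The list was not restricted to genes whose products pair with a member. At 8 HPI 10 were higher and none lower, at 16 HPI 10 were higher and 1 lower, and at 24 HPI 6 were higher and 2 lower. Of all tested genes 3.78%, 10.7% and 5.99% were higher at these times. The share of all genes lower than control is not given here, so the counts of lower genes have no background. The list's median log2 fold change was 0.24, 0.35 and 0.04, against 0.00 over all tested genes. Jun, the classic AP-1 partner of ATF3, went from 39.3 CPM in control to 80.3 at 8 HPI (log2 fold change 1.03, SE 0.09, adjusted p = 1.46e-06) and 68.3 at 16 HPI (0.80, SE 0.09, adjusted p = 2.98e-06). Fosl2 went from 8.54 to 23.9 and 30.8 CPM (1.49 and 1.85, both called). At 1 HPI, when no member passed, Fos and Fosb were called, with log2 fold changes of 2.52 (SE 0.31) and 2.83 (SE 0.41), from control means of 1.11 and 0.303 CPM. Junb was called at 16 and 24 HPI (1.49 and 1.02).

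Ddit3, which encodes the C/EBP relative CHOP and pairs with C/EBP proteins away from their usual sites, was called at 8 and 16 HPI. Its mean was 55.8 CPM in control, 116 at 8 HPI, 119 at 16 HPI and 59.1 at 24 HPI, with log2 fold changes of 1.06 (SE 0.11) at 8 HPI and 1.11 (SE 0.11) at 16 HPI. Atf4, the partner of C/EBPγ in the amino acid response, was higher at 8 HPI by a log2 fold change of 0.21 (SE 0.06, adjusted p = 0.029) and lower at 24 HPI (-0.30, SE 0.06, adjusted p = 0.00113). Cebpz, which was listed for its C/EBP name and is not a basic leucine zipper factor, was 39.2 CPM in control. It did not pass at any time. The C/EBP relative Cebpe had at most 1 count. Of the 3 genes chosen as known to rise with an ATF3 transgene in sensory neurons, Hspb1 rose at 16 HPI (0.90, SE 0.19, adjusted p = 0.00146) and was called at 24 HPI (1.41, SE 0.17, adjusted p = 1.86e-05), when Atf3 itself had fallen, Jun is given above, and Sprr1a had at most 2 counts in any library.

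Of the 6 CNC and BACH partners of the small Maf proteins 5 were tested, and 1 rose and 1 fell at 16 HPI, when 10.7% of all genes rose. The share of all genes that fell against control is not given here, so the fall has no background. Bach1, whose product represses together with small Maf, was higher at 8 HPI (log2 fold change 0.54, SE 0.08, adjusted p = 0.000313) and 16 HPI (0.43, SE 0.08, adjusted p = 0.000527). Nfe2l1 was lower at 16 HPI (-0.19, SE 0.05) and 24 HPI (-0.27, SE 0.05). Nfe2l2, which encodes NRF2, was 34.9 CPM in control and 41.6 CPM at both 8 and 16 HPI and did not pass against control at any time, though it rose from 3 to 8 HPI. Of the 4 large Maf genes, which carry an activation domain, Maf alone was tested and was lower at 16 HPI (-0.35, SE 0.06, adjusted p = 0.00045).

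Of 11 known targets of NRF2 with small Maf, 10 were tested, 2 were higher at 8 HPI (3.78% of all genes) and 5 at 16 HPI (10.7%). Hmox1, the heme oxygenase that BACH1 represses, went from 21.3 CPM in control to 43.7 at 8 HPI (log2 fold change 1.07, SE 0.11, adjusted p = 2.02e-06) and 39.6 at 16 HPI, and was 18 CPM at 24 HPI. Srxn1 went from 93.1 CPM to 175 at 16 HPI (0.91, SE 0.07) and stayed at 183 at 24 HPI (0.97, SE 0.07). Txnrd1 was higher at 8 and 16 HPI, and Gclc and Ftl1 at 16 HPI by 0.19 each, while Slc7a11 was lower at 24 HPI (-0.43, SE 0.06). Nqo1, Gclm, G6pdx and Fth1 did not pass at any time. Of 9 acute-phase genes that C/EBP factors control in other tissues 2 were tested, Serpina3n and C3, and neither passed against control at any time.

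**Figure D4:**
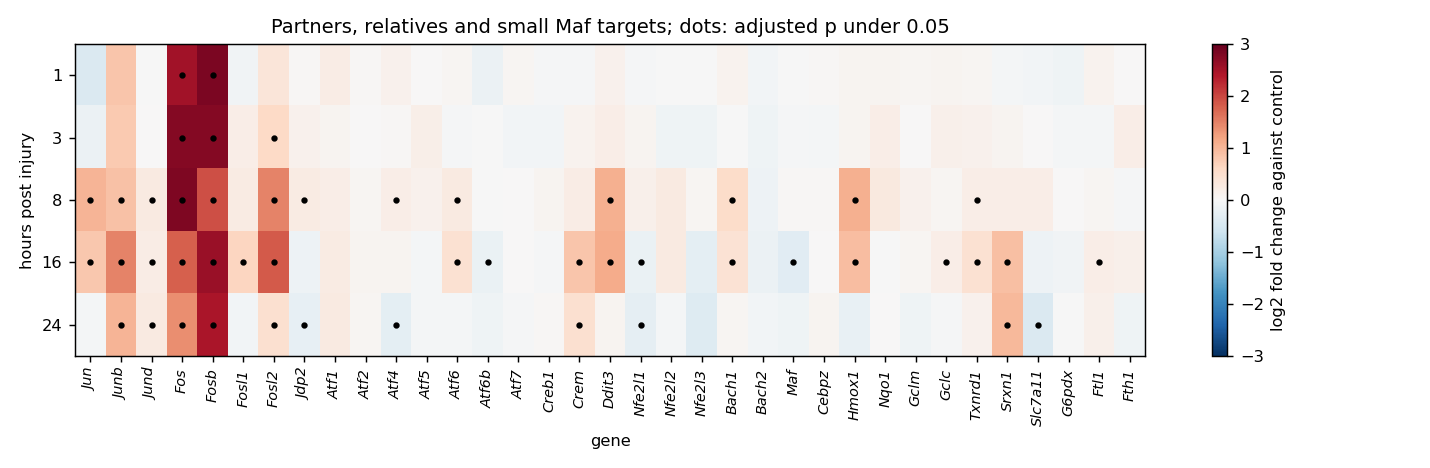
Log2 fold change against control (color, red higher and blue lower, scale from -3 to 3) of the tested partners, relatives and small Maf targets (x axis) at each time after injury (y axis). Cebpz is shown among the relatives for its name only. Dots mark an adjusted p under 0.05. Fos and Fosb are red from 1 HPI (2.52 and 2.83), Jun, Ddit3 and Hmox1 at 8 HPI (1.03, 1.06 and 1.07), and Srxn1 at 16 and 24 HPI (0.91 and 0.97).

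For each member the 3 protein-coding genes with the most similar profile were taken by Pearson r of log2 CPM over the 18 libraries after removal of the batch term, among 12398 genes. These r values are descriptions, since the libraries share groups and times. Closest to Atf3 were Ppp1r15a, which reverses translational arrest under stress (r = 0.974), Mdm2, the ligase that restrains p53 (0.971), and Dusp1, a MAP kinase phosphatase (0.966). Dusp1 had log2 fold changes of 1.64, 1.70 and 0.46 at 8, 16 and 24 HPI, and those of Mdm2 were smaller, 0.39, 0.53 and 0.17. Closest to Maff were Impact, a regulator of the GCN2 kinase (0.959), Bhlhe40 (0.919) and Cldn12 (0.912), and Bhlhe40, a transcriptional repressor, reached 1.32 at 8 HPI and was at 0.20 at 16 HPI. Closest to Mafk were the netrin receptor Unc5b (0.951), Cep85 (0.938) and the Wnt receptor Fzd5 (0.929), with 0.64, 0.43 and 1.35 at 16 HPI.

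Closest to Cebpg were Lysmd3 (r = 0.955), Trim17 (0.931) and Mex3c (0.931), and among the 3 closest to Cebpb were Xbp1, a transcription factor of the unfolded protein response (0.92), and Paqr3 (0.911). Mafg was closest to Mfap3l (0.912), Maco1 (0.902) and Slc25a29 (0.885). The low-count members had lower values, 0.874 for Cebpa with Apcdd1 and 0.872 for Cebpd with Fbxo32, a ubiquitin ligase of wasting muscle. Among the members themselves the closest pair was Cebpb with Cebpg (0.872), then Atf3 with Mafk (0.806), and the most distant was Maff with Cebpd (-0.261). With the batch left in, Mdm2 and Dusp1 stayed among the top 3 for Atf3 (0.967 and 0.96) and Impact for Maff (0.921), whereas none of the top 3 for Mafg, Mafk, Cebpa or Cebpb did.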

How the data were processed

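Total RNA depleted of ribosomal RNA was sequenced from eDRG spot cultures in 18 libraries. The deposited values are read counts per gene, which the authors made by trimming, alignment with STAR to mm10 and counting on GENCODE genes, without normalization. For the counter, featureCounts is given in the paper's methods and HTSeq in the submitters' processing notes. Entries that name no gene, 25.2 to 33.2% of counts, were left out. Intervals from counting were not computed, and counts of reads without molecular identifiers are not independent molecules.

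Names, positions and exon lengths came from GENCODE vM21 on GRCm38, which matched 47224 of 47643 identifiers. The 13771 genes that exceeded 1 CPM in 3 or more libraries were tested with edgeR 4.0.16 in R 4.3.3: TMM, a quasi-likelihood fit to all libraries with time and replicate number as terms, two-sided tests, Benjamini-Hochberg adjustment. CPM were computed on TMM-scaled library sizes, RPKM by dividing by exon length in kilobases, and log2 CPM with a prior count of 2. Same-numbered libraries deviated together from their group means (45 pairs, r from 0.484 to 0.765, mean 0.619). On that evidence the numbers were taken as batches. Libraries of different number and group had a mean r of -0.308. That value largely follows from centering on group means and is not separate evidence. On simulated counts for 8 HPI against control over 13771 genes, 100 of 100 genes changed 2-fold and 100 of 100 changed 3-fold passed, as did 16 unchanged genes. The changed genes were drawn from those with a mean above 2 CPM. Cebpa and Cebpd lay below that level, so these shares do not apply to them. Motifs were searched in RefSeq promoter windows of GRCm38.p6.

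The genes named are the 8 members, the lists of partners, relatives, targets and cell markers, the 3 genes most like each member and neighbors within 10 kb. For Cebpb 1 of those 3 is not reported here. Members and lists were chosen with earlier results of these data known. The alternatives were DESeq2 1.42.0 size factors, upper-quartile factors, the DESeq2 Wald test, 2 other filters, no replicate block, the compared groups alone, residual ribosomal and mitochondrial genes left out, and each compared library left out in turn with the tested genes kept.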

Additional observations from a re-analysis of the deposited data

Results flagged for a closer look

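The change against control differed between neighboring times for 15 pairs of member and step, each tested as the difference itself in edgeR's fit (adjusted p under 0.05), and all values are log2 fold changes. From 3 to 8 HPI these were Atf3 (2.12), Maff (0.78) and Cebpg (0.39). From 8 to 16 HPI they were Atf3 (0.87), Mafk (0.46), Cebpa (1.49) and Cebpd (1.73) upward, and Maff (-0.68) and Cebpg (-0.21) downward. From 16 to 24 HPI they were Atf3 (-1.97), Maff (-0.52), Mafg (-0.28), Mafk (-0.87), Cebpa (-1.41) and Cebpb (-0.53). Groups of 3 libraries were not tested for outlying libraries.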

How the results depend on the processing

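No value that passed the test changed direction under any alternative, and of 412 such values 342 kept their side of the threshold and 70 did not. Without the replicate block 3 members passed at 8 HPI, 3 at 16 HPI, 0 at 24 HPI, 0 from 8 to 16 HPI and 2 from 16 to 24 HPI, and 1, 0, 0 and 1 were called at 16 HPI, 24 HPI, from 8 to 16 and from 16 to 24 HPI. These calls thus depend on the pairing of libraries by replicate number. Requiring over 1 CPM in all libraries removes Cebpa and Cebpd from the test. Under that filter 1, 0 and 1 were called at 16 HPI and in the last 2 steps. With the DESeq2 Wald test 0 and 1 were called in those steps. That test gave no adjusted p for Cebpa in either step or for Cebpd from 8 to 16 HPI. Their calls there were thus not tested by it. With each library left out in turn, the members called ranged from 1 to 3 at 16 HPI, 0 to 1 at 24 HPI, 0 to 3 from 8 to 16 HPI and 1 to 2 from 16 to 24 HPI, and those passing from 3 to 7 at 16 HPI and 3 to 6 from 16 to 24 HPI. The cause of the other losses was not tested.

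The values that reversed, 26 in all, had not passed. For Cebpb at 24 HPI they were 0.03 with upper-quartile factors, 0.01 with the 10-count filter or the DESeq2 Wald test and 0.00 without residual ribosomal and mitochondrial genes, and -0.17 to 0.32 with a library left out. With a library left out the log2 fold change ran from -0.13 to 0.38 (1 HPI) and -0.04 to 0.47 (3 HPI) for Atf3, -0.85 to 0.45 (1 HPI), -0.20 to 0.60 (3 HPI), -0.68 to 0.16 (8 HPI) and -0.58 to 0.22 (24 HPI) for Cebpa, -0.10 to 0.41 (1 HPI) and -1.09 to 0.08 (8 HPI) for Cebpd, -0.20 to 0.01 for Maff and -0.12 to 0.04 for Mafk at 24 HPI, and -0.09 to 0.00 for Mafg from 8 to 16 HPI. Few counts, 3 to 28 per library, limit the values of Cebpa and Cebpd.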
